A study of Mus musculus with 8 samples.

Results

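Accessible chromatin sites lying nearest to olfactory receptor genes were described in 3 ATAC-seq peak lists from mouse cardiac progenitors made in culture. A peak was counted when its summit had, within 100 kb, an autosomal olfactory receptor gene (symbol Olfr and a number) as the nearest protein-coding gene in the RefSeq annotation of mm10. By this rule 341 of 168929 autosomal peaks were counted: 177 of 46805 in the day 5 (D5) control list, 65 of 58220 in the day 7 (D7) control list and 99 of 63904 in the D7 list with GLI1 overexpression. Merging the overlapping peaks within each list gave regions, of which 167 of 38281, 50 of 37973 and 83 of 42192 were counted in that order. The sites were chosen by the peak calls themselves, that is by the presence and summit position of a called peak, so their numbers are a description of the lists and not a test.

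ATAC-seq reads out open DNA from the places where the Tn5 transposase can insert sequencing adapters. All cells came from the mouse embryonic stem cell line GLI1-FTA, strain A2Lox.cre, differentiated towards cardiac progenitors, so the controls carry the same background as the GLI1 cells. The D5 control group had 2 libraries, the D7 control group 3, and the D7 GLI1 group 3 libraries from cells given 500 ng/ml doxycycline for 48 hours to switch on GLI1, which acts as an effector of Hedgehog signalling. The labels give doxycycline for the GLI1 cells only, so an effect of the drug and an effect of GLI1 cannot be told apart. Each deposited list pools the libraries of its group, and no spread between libraries could be computed. In pooled cells, a site open in fewer cells and a site less open in each cell cannot be told apart.

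Olfactory receptors are G protein-coupled receptors that detect odorants, and they form the largest gene family of the mouse genome. Their genes sit in clusters, each coding sequence usually in a single exon, and a mature olfactory sensory neuron transcribes a single allele of a single receptor gene while the rest stay packed in heterochromatin. In those neurons LHX2, EBF factors and LDB1 bind enhancers spread among the clusters. Cardiac progenitors are not a tissue in which most of these receptors are known to work, although Olfr78 and Olfr558 are known from blood vessels and kidney.

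Of the 1100 autosomal olfactory receptor genes, 934 had a promoter window in the RefSeq table of GRCm38.p6 (the assembly of mm10), running from 250 bases before to 50 bases after the annotated start. Regions touched 2 of these 934 windows at D5 (0.214%, Wilson 95% interval 0.0587 to 0.777), 0 in the D7 control list (upper bound 0.410%) and 1 with GLI1 (0.107%, 0.0189 to 0.604). The windows of 15523 other protein-coding genes were touched in 61.0%, 62.3% and 63.6% of cases. The 3 receptor windows that held accessible DNA are shown 5′ to 3′ on the gene's strand, with the bases under the region in capitals. They lie at chr11:59571689-59571988 (Olfr222, minus strand), chr2:37331499-37331798 (Olfr368, plus strand) and chr2:87574836-87575135 (Olfr1129, plus strand).
Olfr222: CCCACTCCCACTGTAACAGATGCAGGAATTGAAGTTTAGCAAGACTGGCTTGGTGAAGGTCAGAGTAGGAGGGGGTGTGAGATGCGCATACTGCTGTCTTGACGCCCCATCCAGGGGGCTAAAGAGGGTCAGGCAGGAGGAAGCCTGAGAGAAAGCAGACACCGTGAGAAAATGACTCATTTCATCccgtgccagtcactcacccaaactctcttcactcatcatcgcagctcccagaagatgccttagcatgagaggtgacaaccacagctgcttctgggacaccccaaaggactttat
Olfr368: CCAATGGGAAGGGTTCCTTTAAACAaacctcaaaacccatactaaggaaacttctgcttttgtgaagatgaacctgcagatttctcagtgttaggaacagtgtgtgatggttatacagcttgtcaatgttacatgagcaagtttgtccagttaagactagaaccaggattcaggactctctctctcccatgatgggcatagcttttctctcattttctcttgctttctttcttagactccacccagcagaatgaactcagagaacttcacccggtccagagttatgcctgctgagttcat
Olfr1129: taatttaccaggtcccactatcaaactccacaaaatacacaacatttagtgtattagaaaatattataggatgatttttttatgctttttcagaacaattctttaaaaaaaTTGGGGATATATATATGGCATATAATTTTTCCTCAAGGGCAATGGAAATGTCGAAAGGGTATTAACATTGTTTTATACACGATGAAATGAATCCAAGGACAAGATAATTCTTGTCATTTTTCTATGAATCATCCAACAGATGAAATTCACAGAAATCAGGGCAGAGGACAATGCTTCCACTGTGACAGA

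The Olfr222 region was called at D5 with a fold enrichment of 5.23, and its summit lay 185 bases before the annotated start. Fold enrichment is the authors' ratio of the signal at the summit to the background in the same list, which varied among D5 peaks. The Olfr368 region, also at D5, had a fold of 4.37 and covered the outer 25 bases of the window, with its summit 299 bases before the start. The Olfr1129 region was called with GLI1 only, had a fold of 3.34 and covered 189 bases, and its summit lay 15 bases before the start. All 3 had folds below the median of all peaks of their lists (5.81 at D5, 5.79 with GLI1), and none of the 3 windows was touched in another list. In all 3 genes the annotated start is an ATG codon, as in 688 of the 934 receptor windows (73.7%) against 5.57% of the other genes. For those genes the annotation begins at the coding start, so the true transcription start may lie upstream of the window.

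The receptor windows were poor in G and C, with a median of 35.0% against 57.3% in the other genes, and held a median of 1 CpG against 15. Of the 5 motifs searched on both strands, TAATTA, a core read by LHX2 and many other homeodomain factors, stood in 18.6% of receptor windows and 3.85% of the others. The TATA box letters TATAAA stood in 41.2% and 11.8%. A palindromic EBF motif was found in 0.535% and 0.973%, a CTCF core motif in 0.214% and 2.49%, and the GLI letters GACCACCCA in 0.107% and 0.180%. Among the 168 windows of genes with a counted peak, TAATTA stood in 15.5%, TATAAA in 37.5% and GACCACCCA in 0. Of the printed windows, that of Olfr1129 holds a TATAAA match on the opposite strand, 68 bases before the start, and the other two hold none of the 5 motifs. A match is a string of letters, and these shares move with base composition.

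Most receptor genes had no accessible site assigned to them. Of the 1100 genes, 902 had no counted peak in any list, 198 had at least 1, and 140 of those had exactly 1 peak over the 3 lists together. The share of genes with a peak was 13.1% at D5 (11.2 to 15.2), 3.91% in the D7 control list (2.91 to 5.22) and 6.36% with GLI1 (5.07 to 7.96), against 73.7%, 71.5% and 73.8% of all other protein-coding genes. D5 alone accounted for 108 genes, GLI1 alone for 34, and the D7 control list alone for 18, and 21 genes had a peak in all 3 lists. Receptor genes are short, with a median annotated length of 0.95 kb against 19.2 kb for the other genes, and the shares were not adjusted for length or spacing.

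**Figure D1:**
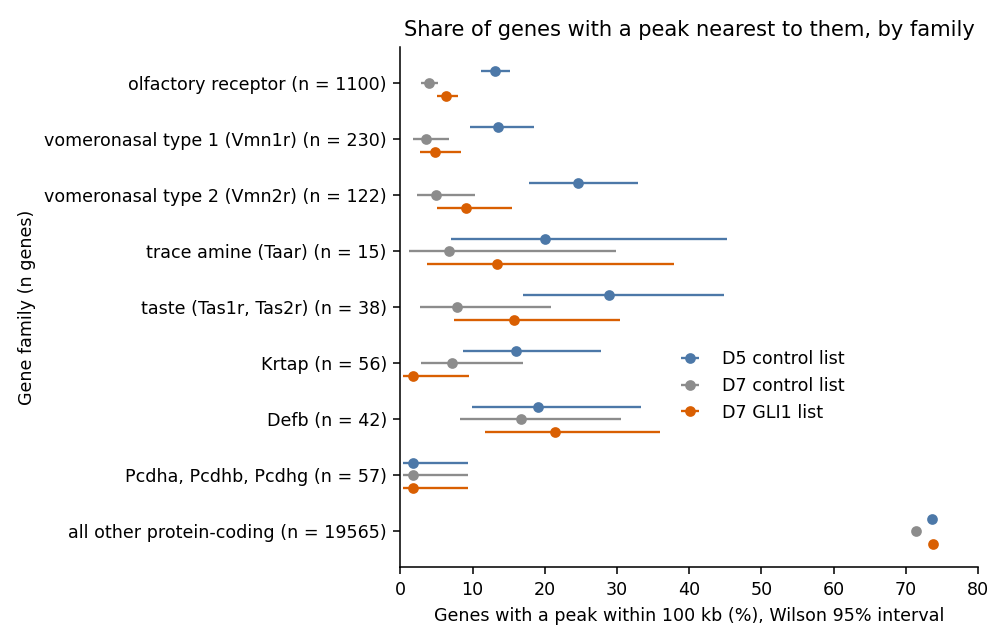
Percent of genes in each family (rows, with the number of genes) that are nearest to at least 1 peak within 100 kb, in the D5 control, D7 control and D7 GLI1 lists. Points are shares and lines are Wilson 95% intervals, which cover counting error only; the olfactory receptors (13.1%, 3.91% and 6.36%) lie far below all other protein-coding genes (73.7%, 71.5% and 73.8%).

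The vomeronasal receptors, pheromone receptors of the accessory olfactory system whose genes also form large clusters, gave the same order of lists. Of 230 Vmn1r genes 13.5% had a peak at D5, 3.48% in the D7 control list and 4.78% with GLI1, and of 122 Vmn2r genes 24.6%, 4.92% and 9.02%. The trace amine receptors (15 genes) gave 20%, 6.67% and 13.3%, and the taste receptors (38 genes) 28.9%, 7.89% and 15.8%, with wide intervals. All 5 chemoreceptor families therefore had the highest share at D5 and the lowest in the D7 control list. The keratin-associated (Krtap) genes, also clustered, gave 16.1%, 7.14% and 1.79%, with the GLI1 list lowest.

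Sites near receptor genes were farther from genes than the other sites of the same lists. A summit lay inside the receptor gene for 15 of 177 peaks at D5 (8.47%), 4 of 65 in the D7 control list (6.15%) and 5 of 99 with GLI1 (5.05%), where 55.5%, 59.2% and 59.4% of all autosomal summits lay inside a gene. The median distance from summit to receptor gene was 6504, 9425 and 8626 bp. Over all autosomal peaks within 100 kb of a gene the median was 0 bp in each list, with upper quartiles of 309, 461 and 480 bp. Receptor genes are shorter (median 0.95 kb against 19.2 kb), and neither the inside shares nor the distances were adjusted for length. A median region spanned 191 bp at D5 (all autosomal regions 238), 250.5 bp in the D7 control list (477) and 256 bp with GLI1 (438). The median fold of the peaks was 5.74 at D5 against 5.81 over all autosomal peaks, 4.32 against 6.30 in the D7 control list, and 4.56 against 5.79 with GLI1. Folds below 4 made up 10.7% of these peaks at D5 (11.1% of all), 46.2% in the D7 control list (25.7% of all) and 39.4% with GLI1 (27.1% of all). The D7 sites near receptor genes thus sat lower in their own lists than the D5 sites did in theirs.

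Calling was not alike at D5 and D7. The background at D5, read from the most common folds of the list, had a median of 0.418 reads per base over the 8 commonest folds (0.376 to 0.546). It was 4.56 in the D7 control list, 10.9 times that median (8.35 to 12.1 times over the range), and 4.70 in the GLI1 list. The 8 folds covered 5.47% of D5 peaks, against 26.5% in the D7 control list and 27.9% with GLI1. The D5 list held 10244 distinct folds, against 530 and 570, so its median background describes a small part of its peaks. Over the 8 commonest folds the background was constant to rounding within each D7 list but varied at D5. The kind of background therefore differed between D5 and D7 as well as its level. Over each list's lowest background, the median fold of the counted peaks stood for 6.89, 23 and 25 reads. The minimum peak length was 124 bp at D5 against 200 bp in both D7 lists. The day, the depth and the calling differ together between D5 and D7 and cannot be told apart, and folds from different lists are given side by side without a ratio. The labelled cell type was checked through regions near marker genes: all 8 cardiac progenitor markers had regions in each list (50, 30 and 31 regions at D5, in the D7 control list and with GLI1), and the 5 olfactory sensory neuron markers had 7, 13 and 9 regions, with Omp, the olfactory marker protein gene, at 0 in each list. Endothelial (3 genes), neural progenitor (3 genes) and endoderm markers (2 genes) also had regions near every gene in each list. Their regions numbered 15, 14 and 15, then 12, 13 and 17, then 12, 4 and 19. The 3 pluripotent markers had 7, 3 and 4 regions, near 2, 2 and 1 of the genes. Of these markers, Pou5f1 had no region in any list and Zfp42 had none with GLI1. As most protein-coding genes had a peak, these counts do not single out the cardiac label.

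From D5 to D7 in control cells, 146 of 167 D5 regions near receptor genes had no overlapping D7 control region (87.4%, 81.5 to 91.6), where the share over all autosomal D5 regions was 50.1%. Such regions are called closed. The closed regions had a median fold of 5.42 and the 21 kept regions 6.42. In the other direction, 31 of 50 D7 control regions had no D5 region (62%, 48.2 to 74.1), where the share over all regions was 55.4%, and these are called opened. Over all autosomal regions 1 to 100 kb from their nearest gene, the closed share was 70.9% and the opened share 72.8%, the latter above that of the receptor regions. With at least 50% of both regions required to overlap, the opened share was below its background (74.0% against 79.0%). With the 3 lists cut to the same number of peaks, a setting added after the data were seen, it was 46.7% against 47.0%. Whether receptor regions opened at another rate than regions elsewhere is therefore not settled by these lists.

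Closed regions were spread over all strengths at D5. Of the D5 regions near receptor genes with a fold below 4, 84.2% were closed, and the shares were 91.1% for folds from 4 to 5, 91.4% from 5 to 7, 82.1% from 7 to 10 and 76.5% (13 of 17) at 10 and over. Over all autosomal D5 regions the shares for the same classes were 63.3%, 68.2%, 61.7%, 34.2% and 12.9%. Over all autosomal regions lying 1 to 100 kb from their nearest gene, a position more like that of the receptor regions, they were 76.0%, 78.6%, 72.9%, 59.7% and 42.0%. The gap to the other regions was thus widest among strong sites, and part of the gap to all autosomal regions was also present in gene-distant regions elsewhere.

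**Figure D2:**
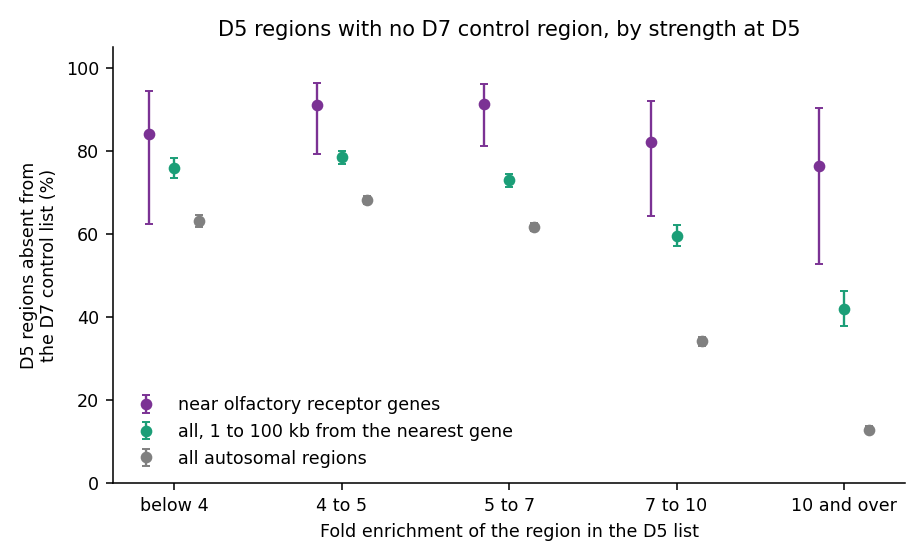
Percent of D5 regions with no overlapping D7 control region (vertical axis) by fold enrichment at D5 (horizontal axis, 5 classes), near olfactory receptor genes, over all autosomal regions 1 to 100 kb from the nearest gene, and over all autosomal regions. Points are shares with Wilson 95% intervals; in the class of fold 10 and over the 3 shares are 76.5%, 42.0% and 12.9%.

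The strongest D5 regions that were in neither D7 list lay in several clusters. A region 6.10 kb from Olfr960 at chr9:39630110-39630483 had a fold of 14.1, one 18.7 kb from Olfr774 at chr10:129219276-129219691 had 13.7, and one 7.55 kb from Olfr195 at chr16:59141171-59141456 had 13.1. Those near Olfr893 (12.3), Olfr140 (11.7) and Olfr576 (11.5) followed, and the last of these lies among the class I receptors of chromosome 7. These genes encode odorant receptors, and no protein-coding gene outside the family lay within 25 kb of these 6 summits. The D7 lists, with higher backgrounds, called no region over any of the 6.

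The vomeronasal families gave closed shares of the same kind. For Vmn1r genes 35 of 37 D5 regions were closed (94.6%), and for Vmn2r genes 41 of 42 (97.6%), against 45.1% for all protein-coding genes other than olfactory receptors. The intervals of the olfactory receptors (81.5 to 91.6), Vmn1r (82.3 to 98.5) and Vmn2r (87.7 to 99.6) overlap, and the differences between these families were not tested.

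Between GLI1 and control cells at D7, 60 of 83 GLI1 regions near receptor genes had no D7 control region (72.3%, 61.8 to 80.8), where the share over all autosomal GLI1 regions was 39.2%. These are called gained. In the other direction 27 of 50 D7 control regions had no GLI1 region (54.0%, 40.4 to 67.0), where the share over all was 31.9%, and these are called lost. Over all autosomal regions 1 to 100 kb from their nearest gene the gained share was 49.7% and the lost share 43.2%, and the latter lies within the interval of the receptor regions. The 23 regions shared by the D7 lists had median folds of 6.67 in the GLI1 list and 5.76 in the D7 control list, and the gained and lost regions had medians of 3.86 and 3.42. A fold below 4 was found for 34 of the 60 gained and 18 of the 27 lost regions (56.7% and 66.7%), and for 53.3% and 56.2% of all gained and lost autosomal regions.

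Gained regions were most frequent among weak sites. Of the 36 GLI1 regions with a fold below 4, 34 were gained (94.4%), against 71.2% of all autosomal regions of that class. Of the 11 with a fold of 10 or more, 3 were gained (27.3%, 9.75 to 56.6), against 4.74% of all. Over all autosomal regions 1 to 100 kb from their nearest gene, the shares for these 2 classes were 71.9% and 13.2%. The latter lies within the interval of the receptor regions. Of the D7 control regions near receptor genes, none of the 3 with a fold from 7 to 10 and none of the 6 with a fold of 10 or more was lost, where 20.7% and 2.46% of all autosomal regions of those classes were. With 9 such regions in all, no difference from other regions of like fold can be read from this.

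The 3 strong gained regions, named after their values were seen, were broad. The first spanned 1233 bp, 32.6 kb from Olfr24 at chr9:18721283-18722515, with a fold of 13.0. The second spanned 753 bp, 13.8 kb from Olfr541 at chr7:140718704-140719456, with a fold of 11.1, and a second gained region with a fold of 6.67 lay 15.9 kb from the same gene. The third spanned 850 bp, 155 bp from Olfr225 at chr11:59614175-59615024, with a fold of 10.2. None of these 4 regions overlapped a D5 or D7 control region, and the summits of all 4 lay outside the stretch from the first to the last gene of their cluster. The Olfr225 region itself reached into the gene, which ends at 59614225.

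Of the 60 gained regions, 10 overlapped a D5 region (16.7%, against 13.3% of all gained regions), and of the 27 lost regions 3 did (11.1%, against 8.83%). The 10 included the strongest D5 region near any receptor gene, 4.49 kb from Olfr1253 at chr2:89757177-89757466, with a fold of 15.2 at D5, no D7 control region and a fold of 5.27 with GLI1. The other strengths varied. A region 18.3 kb from Olfr126 at chr17:37869660-37870046 had 12.8 at D5 and 5.62 with GLI1. A region 33.5 kb from Olfr31 at chr14:14294386-14294734 had 8.34 and 8.43. A region 14.0 kb from Olfr763 had 4.79 and 5.97. One of the 10 lay 8.94 kb from Olfr713, with folds of 5.09 and 4.21. Olfr713 was one of 13 genes with peaks at D5 and with GLI1 but not in the D7 control list, and 2 genes had peaks at D5 and in the D7 control list but not with GLI1.

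The GLI1 list was also set against D5. Of its 83 regions near receptor genes, 57 had no D5 region (68.7%, against 57.3% of all), and of the 167 D5 regions 139 had no GLI1 region (83.2%, against 46.8% of all). The D7 lists share their day and their way of calling, and both comparisons with D5 share the D5 libraries. Given side by side, 87.4% of the D5 regions were absent from the control list and 83.2% from the GLI1 list.

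Joined over the 3 lists, the regions near receptor genes made 245 sites out of 69696. D5 alone held 136 of them (55.5%, against 24.1% of all sites), GLI1 alone 50 (20.4%, against 20.6%) and the D7 control list alone 24 (9.80%, against 15.8%). Sites in all 3 lists numbered 16 (6.53%, against 22.6%), sites in both D7 lists only 6 (2.45%, against 12.4%), sites at D5 and with GLI1 10 (4.08%, against 3.11%), and sites at D5 and in the D7 control list 3 (1.22%, against 1.5%). The share found with GLI1 alone was close to that of all sites, and the share found in both D7 lists only was low.

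**Figure D3:**
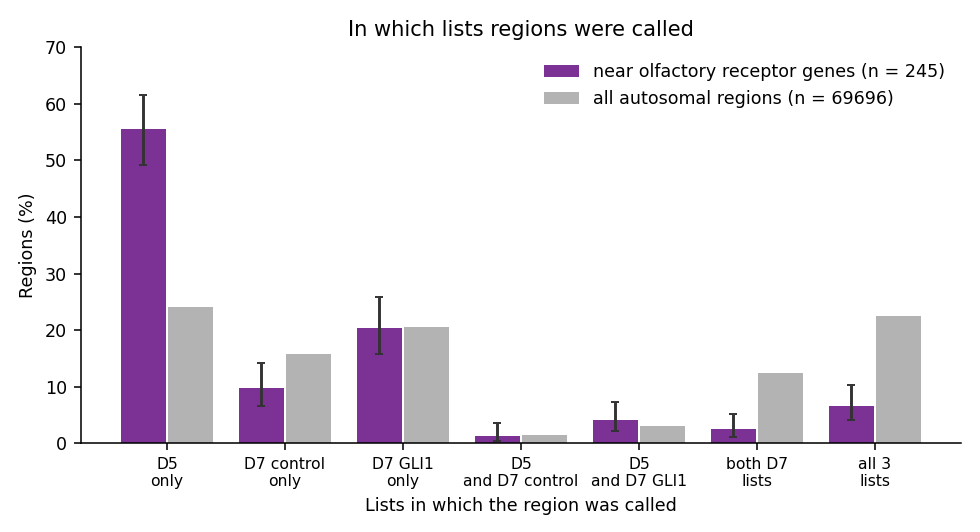
Percent of sites (vertical axis) by the lists in which they were called (horizontal axis), for 245 sites near olfactory receptor genes and for all 69696 autosomal sites. Bars are shares and the error bars on the receptor sites are Wilson 95% intervals; 55.5% of the receptor sites and 24.1% of all sites were called at D5 only.

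The 16 sites present in all 3 lists lay near 14 receptor genes and included the highest fold in each D7 list. At D5 the highest folds, near Olfr1253 and Olfr960, were at sites missing from the D7 control list. The first, 4.59 kb from Olfr288 at chr15:98180971-98181850, had folds of 12.1 at D5, 31.0 in the D7 control list and 33.2 with GLI1. It lies inside the lncRNA gene Gm33909, and the protein-coding gene Ccdc184 is 11.3 kb away. The second, 73.9 kb from Olfr291 at chr7:84778814-84780123, had 8.56, 18.2 and 29.3. It lies 89.7 kb from Zfand6 on its other side, so its assignment to a receptor gene rests on distance over a wide gap between genes. In both D7 lists these regions stood among the highest folds near receptor genes.

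Chromosome 14 held a pair of such sites. The site 5.40 kb from Olfr750 at chr14:51062773-51066214 had folds of 5.94 at D5, 23.0 in the D7 control list and 18.8 with GLI1. It was the broadest, 2999 bp in the D7 control list and 2397 bp with GLI1, and it lies 7.67 kb from Rnase12, a gene of the ribonuclease family. Olfr750 had the most peaks of any receptor gene, 2 at D5, 7 in the D7 control list and 7 with GLI1. The site 21.1 kb from Olfr726 at chr14:50061976-50063013 had 7.65, 14.4 and 22.6, with no protein-coding gene outside the family within 279 kb.

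Other sites in all 3 lists were in or beside annotated genes. The site at chr7:102512641-102513556, 18.5 kb from the class I receptor gene Olfr545 and inside the pseudogene Gm8556, had folds of 7.84, 9.0 and 21.2. The site at chr17:37196671-37197712 lies inside Olfr94 and had 7.13, 11.2 and 12.1, with summits 665, 692 and 588 bases after the annotated start. It was the only site inside a receptor gene that was present in all 3 lists. Another protein-coding gene, not among the counted receptor genes, lies 1.17 to 1.28 kb from its summits. The site at chr7:104646986-104647521, within 19 bp of Olfr658 and inside the pseudogene Usp17le-ps, had 11.2, 5.76 and 11.1. A site 16.2 kb from Olfr1358 had 13.8, 8.64 and 9.65 and lies 17.1 kb from Pdxk, the pyridoxal kinase gene.

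The weaker shared sites had folds of 10.2, 3.78 and 4.56 near Olfr761 and 3.76, 7.02 and 6.85 near Olfr1373. The remaining 6, near Olfr1358, Olfr412, Olfr9, Olfr827, Olfr875 and Olfr94, had folds from 2.52 to 6.67 in every list.

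In both D7 lists but not at D5 there were 6 sites. The site 27.4 kb from Olfr514 at chr7:108796927-108798025 had a fold of 24.7 in the D7 control list and 6.67 with GLI1. The site 565 bp from Olfr30 at chr11:58453349-58454673 had 13.5 and 21.8. Its D7 control region was counted through the GLI1 summit, since its own strongest summit was nearer to Lypd9. A group of 3 sites 16.0 to 17.4 kb from Olfr1368 had 4.5 and 9.48, 3.60 and 3.51, and 3.78 and 5.44, and Trim27 lies 20.4 kb from the first of them. The site 17.7 kb from Olfr822 had 4.32 and 5.09.

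**Figure D4:**
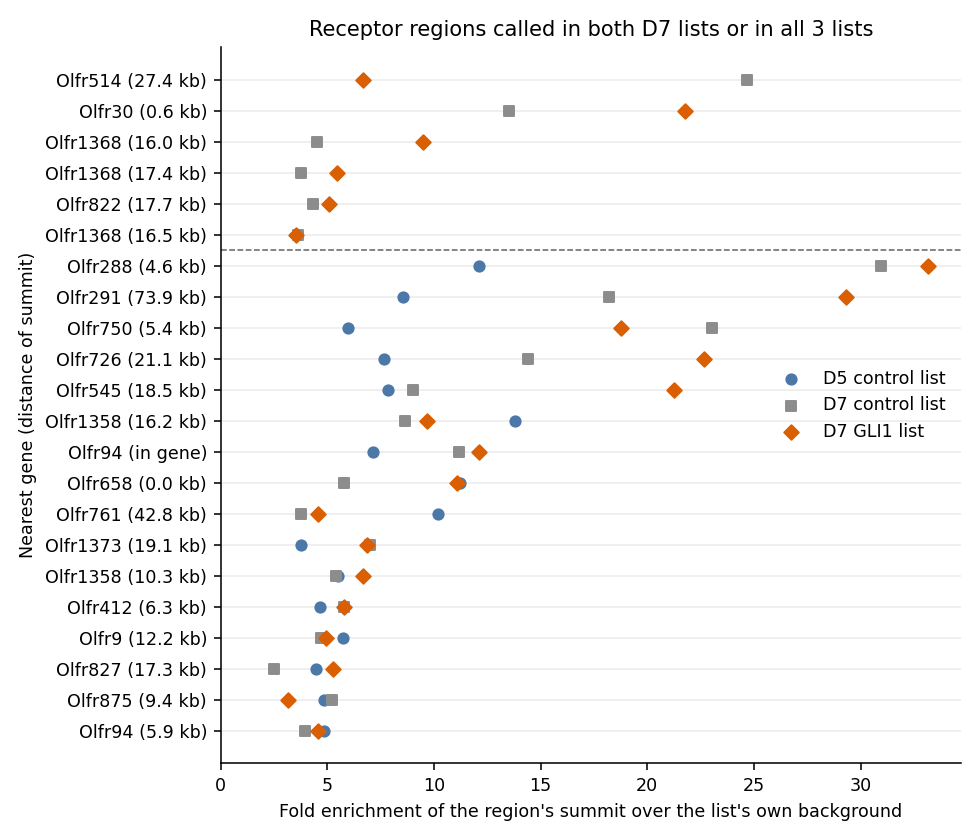
Fold enrichment over the list's own background (horizontal axis) of the 6 sites called in both D7 lists only (above the dashed line) and the 16 called in all 3 lists (below it), labelled by nearest olfactory receptor gene and distance. Each point is a single pooled list. Folds of different lists have different backgrounds, which at D5 also varied among peaks. The highest folds are 33.2, 31.0 and 29.3 near Olfr288 and Olfr291.

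Sites inside receptor genes were few and mostly at D5. Besides Olfr94, those with the highest folds at D5 were in Olfr145 (7.27), Olfr376 (6.07), Olfr95 (5.97), Olfr452 (5.81) and Olfr1044 (5.78), each called at D5 only. Olfr78, known as a receptor for short-chain fatty acids that is expressed in blood vessels and the carotid body, had 3 regions inside it at D5 with folds of 5.26, 4.68 and 3.21, and none at D7. Olfr1414 had 1 in the D7 control list (4.86) and Olfr303 1 in the GLI1 list (4.91). Olfr558, named after its values were seen, had 1 in the D7 control list (3.42). Of genes used as models in olfaction, Olfr1507 (MOR28) and Olfr17 (P2) had no counted peak in any list, and Olfr16 (MOR23) had 2 peaks at D5, 0 in the D7 control list and 1 with GLI1.

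With neighbouring receptor genes joined wherever gaps did not exceed 1 Mb, the 1100 genes formed 48 clusters, 9 of them a single gene. In 10 clusters no list had a counted peak, and a peak was found in 35 clusters at D5, in 25 in the D7 control list and in 26 with GLI1. D5 had more regions than the D7 control list in 29 clusters and fewer in 5, and GLI1 had more than the D7 control list in 19 and fewer in 7. Region counts in the order D5 over GLI1 over D7 control were found in 9 of the 48 clusters, and the other 39 had another order or a tie.

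The cluster with the most genes, 222 from Olfr987 to Olfr1274 on chromosome 2 (85330967 to 90401674), held 24 regions at D5, 3 in the D7 control list and 11 with GLI1. The class I cluster of chromosome 7 (Olfr543 to Olfr692, 126 genes, 102476773 to 105369317), whose receptors resemble those of fish and which surrounds the beta-globin genes, held 18, 7 and 10. The chromosome 9 cluster from Olfr160 to Olfr986 (94 genes) held 15, 1 and 4, and the neighbour of the class I cluster on chromosome 7 (Olfr693 to Olfr519, 65 genes) held 10, 2 and 5. The chromosome 19 cluster (Olfr1417 to Olfr1505, 63 genes) held 3, 1 and 2. These 5 clusters together had 570 genes and 70, 14 and 32 regions, and the other clusters, with 530 genes, had 97, 36 and 51. By peaks the chromosome 14 cluster from Olfr722 to Olfr1507 (28 peaks over the 3 lists) and the chromosome 17 cluster from Olfr90 to Olfr136 (21 peaks) were also among the top 5. The latter, beside the major histocompatibility complex, held 11 regions at D5 and 5 in each D7 list.

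**Figure D5:**
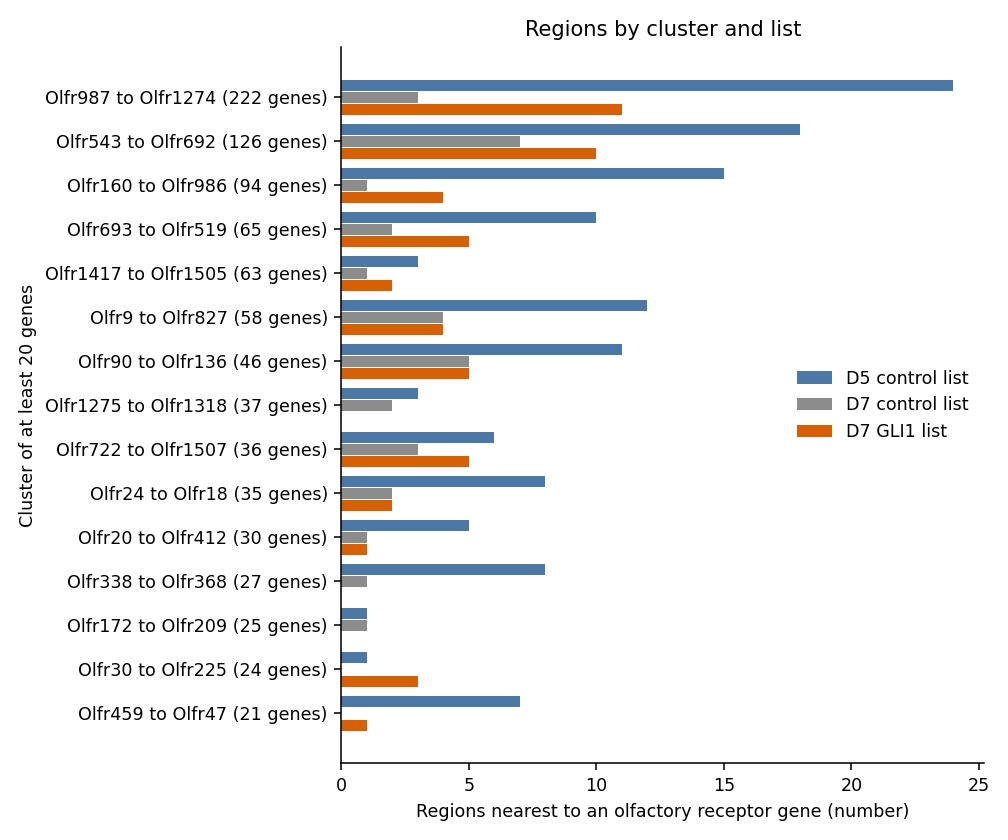
Number of regions nearest to an olfactory receptor gene (horizontal axis) in the D5 control, D7 control and D7 GLI1 lists, for each cluster of at least 20 genes (rows, named by first and last gene). The cluster Olfr987 to Olfr1274 has 24, 3 and 11 regions, and the D5 bar is the longest or tied for longest in each cluster shown except Olfr30 to Olfr225 (1, 0 and 3).

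Between the first and last genes of the clusters, a span of 34.1 Mb, regions of any assignment were sparser than elsewhere on the autosomes. There were 10 per Mb against 15.8 at D5, 5.55 against 15.8 in the D7 control list and 7.02 against 17.5 with GLI1, or 1.58, 2.84 and 2.50 times fewer. Within these stretches 136 of 149 receptor regions were closed from D5 to D7 (91.3%), while at the margins, outside the outermost genes but within 100 kb, 10 of 18 were (55.6%). Over all autosomal D5 regions 50.1% were closed. Lost regions made up 24 of 40 within (60.0%) and 3 of 10 at the margins (30.0%), against 31.9% of all regions. Gained regions made up 48 of 63 (76.2%) and 12 of 20 (60.0%), against 39.2% of all. Regions at the margins were thus kept between lists more often than regions within, by counts that are small at the margins. The intervals within and at the margins overlap for the lost and gained shares, and not for the closed share. Median folds within and at the margins were 5.78 and 4.86 at D5, 4.05 and 5.04 in the D7 control list, and 4.04 and 6.23 with GLI1. The difference by position was not tested and was not adjusted for fold.

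The limit of 100 kb decided few sites. The counted peaks farthest from their gene were 85.7 kb from Olfr267 at D5 (fold 5.81) and, in the D7 lists, 73.9 to 74.2 kb from Olfr291. Just beyond the limit, peaks 113 kb from Olfr267 had folds of 23.6 in the D7 control list and 22.8 with GLI1, and the nearest such peak at D5 was 260 kb from Olfr1505 (fold 6.28). Over all autosomes 2, 6 and 4 peaks had a receptor gene as nearest gene beyond 100 kb.

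The genes that serve receptor choice and odour signalling in olfactory neurons were counted too. The 30 genes of that list had 68 regions near 24 genes at D5, 116 near 26 in the D7 control list and 126 near 27 with GLI1, where 70.4%, 67.9% and 70.2% of all protein-coding genes had a peak. Of these regions 53 were gained (42.1%, against 39.2% of all), 39 lost (33.6%, against 31.9%), 76 opened (65.5%, against 55.4%) and 24 closed (35.3%, against 50.1%), so the gained and lost shares were near those of all regions. Ebf1, a transcription factor of olfactory neurons, B cells and mesoderm, had 10, 8 and 19 regions, of which 12 were gained and none of the D7 control regions was lost. Ebf2 had 5, 23 and 18 regions, with 6 gained and 11 lost. Lhx2, whose product binds receptor enhancers in the nose, had 5, 8 and 10. Omp and Rtp2, which encodes a receptor-transporting protein, had none in any list. Most of these genes are also expressed in other tissues.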

How the data were processed

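ATAC-seq libraries of 8 samples in 3 groups were deposited by the authors as 3 peak lists, 1 pooled list a group. MACS2 2.1.1, Bowtie2 2.3.2, Picard, SAMtools 1.5 and build mm10 are listed, with no roles, in the submitters' processing notes. Placing the control list at D7 is an inference from its name. In the deposited lists the authors give each peak a fold enrichment (a ratio), the −log10 of its p and of its q, and a score, which is 10 times the −log10 q. No library total was used, and only the backgrounds inform on depth.

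Peaks of a list that overlapped were merged and placed by the summit of the highest −log10 q. The numbers of merged and overlapping regions were checked against bedtools 2.31.1. Regions were shared when they overlapped by 1 base. Of the gene table, 20665 autosomal protein-coding genes were used, 1100 of them olfactory receptor genes. The table gives no exons, so exon status is not stated. Wilson 95% intervals (scipy 1.17.1) cover counting error only. With 1 list a group no p-value is given. The scripts were tested on simulated data.

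The members, gene lists and definitions were chosen with earlier results of these data known. Named were the 10 receptor genes with the most peaks, those at the 5 highest folds of each list, up to 10 with a region in all lists and up to 10 with a summit inside the gene, the 5 clusters with the most genes or peaks, and the peaks at the distance limit. Receptor genes beyond these were named after their values were seen. Promoter sequences are from RefSeq, GRCm38.p6.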

Additional observations from a re-analysis of the deposited data

How the results depend on the processing

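No paired analysis was possible because the lists pool their libraries, 1 list a group, which also kept any library from being left out. Over 8 alternatives, 81 values were computed. Of them 67 stayed within their Wilson interval, within the quartile range for median folds, or within 1.5 times for counts. Some of these could not move, as cutting lists to equal length leaves the shortest list whole. Counting pseudogene-named symbols changed no number of counted peaks, so the 67 are not a measure of stability. Of 30 shares of gained, lost, opened or closed regions, 28 were above the share over all regions in the same setting; the exceptions were the 2 opened shares given in the report. With only peaks of −log10 q of at least 5, 92 of 177 peaks at D5 and 41 of 65 in the D7 control list were left. The shares of receptor genes with a peak were then 7.36%, 2.27% and 4.36% at D5, in the D7 control list and with GLI1. The lost share was 36.7% (11 of 30, 21.9 to 54.5), and its interval holds the 27.4% of all regions. With an overlap of 50% of both regions the closed share was 92.2%, against 79.1% of all regions, a smaller gap than in the main setting (87.4% against 50.1%). With the 3 lists cut to equal length, added after seeing the data, the D7 control list had 40 peaks and 2.27% of genes, and the GLI1 list 60 peaks and 3.82% of genes. There the gained share was 57.4%, against 30.2% of all regions, and the opened share 46.7%, against 47.0%. The lost share was 36.7% (11 of 30, 21.9 to 54.5), and its interval again holds the share of all regions, 29.4%. Settings with fewer peaks test fewer regions; beyond that the cause was not tested. Nothing beyond the backgrounds is known of depth, and a region absent from a list may lie below that list's threshold.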

Other observations

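Other protein-coding genes lie between the receptor genes. The 207 such genes within the clusters had 193 regions at D5, 149 in the D7 control list and 176 with GLI1, so most regions inside the clusters belonged to them and not to the receptors. Of those, 47 were gained (26.7%, against 39.2% of all regions), 20 lost (13.4%, against 31.9%), 50 opened (33.6%, against 55.4%) and 78 closed (40.4%, against 50.1%). The most regions lay near Trim27, a ubiquitin ligase gene beside Olfr1368 (7, 11 and 12), Ppfibp2 (6, 9 and 10) and Osbp, the oxysterol-binding protein gene within the chromosome 19 cluster (5, 7 and 5). A list of 22 genes known to sit among or beside receptor clusters, of which 21 were matched, had 18 regions at D5 and 11 in each D7 list. Of these 0 were gained (against 39.2% of all regions), 0 lost (against 31.9%), 0 opened (against 55.4%) and 6 closed (33.3%, against 50.1%). In it Stim1, a calcium sensor gene, had 4, 2 and 2 regions, and Rrm1, a subunit of ribonucleotide reductase, had 1 in each list with top folds of 11.2, 23.6 and 25.5. Of the beta-globin genes, which lie inside the class I cluster, Hbb-y had 1 region at D5 (fold 7.22) and none at D7, and the other listed Hbb genes had none in any list.

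The beta-defensin (Defb) genes, a clustered family outside the senses, had a peak near 19% of 42 genes at D5, 16.7% in the D7 control list and 21.4% with GLI1. Their intervals overlap across the 3 lists. The clustered protocadherins, whose genes are annotated over one another, had 1 gene of 57 with a peak in each list.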
